A study of Mus musculus with 2 samples.

Results

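The chromatin described here lies at 10 mouse genes that take up, store, export and sense iron: Tfrc, Tfr2, Slc11a2, Steap3, Fth1, Ftl1, Ncoa4, Slc40a1, Aco1 and Ireb2. ATAC-seq peaks of a Brd9 knockout and a control library were merged into regions wherever they shared at least 1 bp. A region belonged to the iron genes when it overlapped 1 of them, or lay within 20 kb of it, on the mm10 build. This gave 40 of the 29076 regions of the study, made of 33 knockout and 36 control peaks. No accessibility value entered this rule, but the genes and the rule were chosen with earlier results of these data known.

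ATAC-seq uses a transposase that inserts adapters into open DNA, so the number of reads over a site measures its accessibility. The 2 libraries came from C57BL/6 fetal livers at E14.5, each from 150000 cells sorted as lineage-negative and c-Kit-positive, a gate for blood stem and progenitor cells. The knockout library (replicate 2) carried the genotype CD45.2(+) Vav1-iCre Brd9fl/fl, and the control library (replicate 1) was CD45.2(+) Brd9fl/fl, so both genotypes carried the floxed Brd9 allele. Cre is made under Vav1 control, which is active across the blood lineages, and it cuts out the floxed segment of Brd9. BRD9 is a bromodomain protein of the non-canonical form of the BAF complex, a remodeller of chromatin. The sources used here do not give the number of embryos behind a library. With 1 library per genotype there was no replicate check. No p-value was computed, and all intervals are 95% intervals that cover counting error only.

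Developing red cells take up most of the iron in the fetal liver, because they make hemoglobin. Iron arrives bound to transferrin, which the transferrin receptor carries into endosomes, where the metal is reduced and pumped into the cytosol. There it is used, stored in ferritin or sent out of the cell through ferroportin. A pair of iron regulatory proteins sense the free iron and bind hairpins in the messenger RNAs of several of these genes, so much of their known control acts on RNA rather than on chromatin.

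The promoters below are those of the main uptake receptor, of its relative Tfr2, of the most accessible iron gene (Aco1) and of both ferritin chains, since the comparison of the genotypes turns on the regions that cover them. They are 250-base stretches just upstream of RefSeq transcription starts (assembly GRCm38.p6, the same coordinates as mm10), written 5′ to 3′ on the strand of the gene. Capitals mark short motifs on either strand. These are the CACCC box read by KLF factors, the CCAAT box read by NF-Y, the TATA element TATAAA, and the GATA site, which is the word GATA flanked by A or T on its left and by A or G on its right. The last Fth1 stretch is the start with no peak in either library, and the other 5 stretches belong to starts inside a region found in both.
Tfrc, chr16:32608646-32608895, plus strand: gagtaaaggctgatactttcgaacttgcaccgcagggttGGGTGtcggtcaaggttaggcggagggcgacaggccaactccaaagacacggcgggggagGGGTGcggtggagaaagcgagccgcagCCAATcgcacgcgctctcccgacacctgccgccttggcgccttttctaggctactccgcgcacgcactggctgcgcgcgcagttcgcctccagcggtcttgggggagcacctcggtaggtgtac
Tfr2, the third start, chr5:137570725-137570974, plus strand: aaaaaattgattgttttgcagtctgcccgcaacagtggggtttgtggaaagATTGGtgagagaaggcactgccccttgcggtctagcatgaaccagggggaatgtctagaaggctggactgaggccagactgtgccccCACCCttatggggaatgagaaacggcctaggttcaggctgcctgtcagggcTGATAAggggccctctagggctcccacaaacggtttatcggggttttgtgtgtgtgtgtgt
Aco1, chr4:40143015-40143264, plus strand: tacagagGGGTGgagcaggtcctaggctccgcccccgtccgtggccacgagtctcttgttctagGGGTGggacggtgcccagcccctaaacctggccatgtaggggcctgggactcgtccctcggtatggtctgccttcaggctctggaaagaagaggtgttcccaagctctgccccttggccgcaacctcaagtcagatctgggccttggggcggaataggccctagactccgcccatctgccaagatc
Ftl1, chr7:45459887-45460136, minus strand: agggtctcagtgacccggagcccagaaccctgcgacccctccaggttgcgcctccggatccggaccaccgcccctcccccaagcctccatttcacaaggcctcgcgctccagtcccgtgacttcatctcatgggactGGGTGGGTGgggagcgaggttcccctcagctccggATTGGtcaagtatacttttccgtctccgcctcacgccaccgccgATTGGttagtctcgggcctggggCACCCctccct
Fth1, start with a region, chr19:9982396-9982645, plus strand: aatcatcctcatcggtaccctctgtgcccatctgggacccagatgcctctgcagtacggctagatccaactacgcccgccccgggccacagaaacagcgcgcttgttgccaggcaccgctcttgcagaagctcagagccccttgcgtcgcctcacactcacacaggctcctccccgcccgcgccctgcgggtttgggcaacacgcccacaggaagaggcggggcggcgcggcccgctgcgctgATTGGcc
Fth1, start without a region, chr19:9980350-9980599, plus strand: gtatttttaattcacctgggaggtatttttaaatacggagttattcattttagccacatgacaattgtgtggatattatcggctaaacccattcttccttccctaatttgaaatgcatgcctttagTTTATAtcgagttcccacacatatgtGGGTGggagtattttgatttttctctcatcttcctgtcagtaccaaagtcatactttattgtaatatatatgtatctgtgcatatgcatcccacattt

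The knockout list held 22348 peaks with a median of 28 reads at the summit, and the control list held 25330 peaks with a median of 37. Genome-wide background was 0.971 reads in the knockout and 1.52 in the control library. The knockout library was therefore taken as 0.640 times as deep, and a scaled ratio below is knockout over control summit reads divided by 0.640. Over all regions 18486 (63.6%) were shared by both lists, 3776 (13.0%) were knockout-only and 6814 (23.4%) were control-only. Gene-end regions, which came within 1 kb of the lower or upper end of a gene, were found in both lists at 7 of 10 markers of blood progenitors, among them Kit, but in neither list at Cd34, Ptprc and Gata2. Of the markers of other fetal liver cells, 3 of 10 for hepatocytes and 2 of 10 for macrophages had such a region in both lists, and Alb, Afp, Ttr, Hnf4a, Adgre1 and Csf1r had none. This reading misses starts inside a gene, so a gene without a gene-end region can still have an open start. Fth1 and Steap3 are such genes, since they had no gene-end region but shared regions at starts inside them. The start of Brd9, which does not test the deletion, had 151 knockout and 217 control reads, a scaled ratio of 1.09 (0.877 to 1.34). The libraries differed in sex chromosome signal. Ddx3y and Uty on chromosome Y had 33 and 18 reads in the knockout library and no peak in the control library, and Xist had 33 knockout and 86 control reads. None of the 10 iron genes is on a sex chromosome. Accessibility in a sorted bulk sample cannot tell fewer open cells of a type from less opening per cell.

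Accessibility at the iron genes was close between the genotypes at nearly every site found in both. Of the 40 regions, 29 (72.5%, Clopper-Pearson interval 56.1 to 85.4%) were shared, 4 (interval of the share 2.79 to 23.7%) were knockout-only and 7 (17.5%, 7.34 to 32.8%) were control-only, against 13.0% knockout-only and 23.4% control-only over all regions. None of the 29 shared regions had a scaled ratio of at least 2, where 2.39% of all shared regions did, and none was at or below 0.5, where 1.99% were. With 29 regions, finding none is near those shares. The median log2 scaled ratio was -0.07 (SD 0.29 over 29 regions), beside -0.00 (SD 0.46) over all shared regions. Ratios ran between 0.566 and 1.43, with 20 below 1 and 9 above (50.5% of all shared regions were below 1), and 27 of 29 (93.1%) stayed within 1.5-fold of equality, against 81.4% of all shared regions. The interval excluded 1 at a single region, inside Slc11a2, where it lay below 1. An interval below 1 was found at 8.47% of all shared regions and one above 1 at 7.41%. The iron genes had a median of 4.0 regions within 20 kb, between 1 and 7 each, beside a median of 2.0 for 21900 protein-coding genes. Since a region within 20 kb can belong to a neighbour, it matters that 14 of the 40 lay at the end of another gene.

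**Figure D1:**
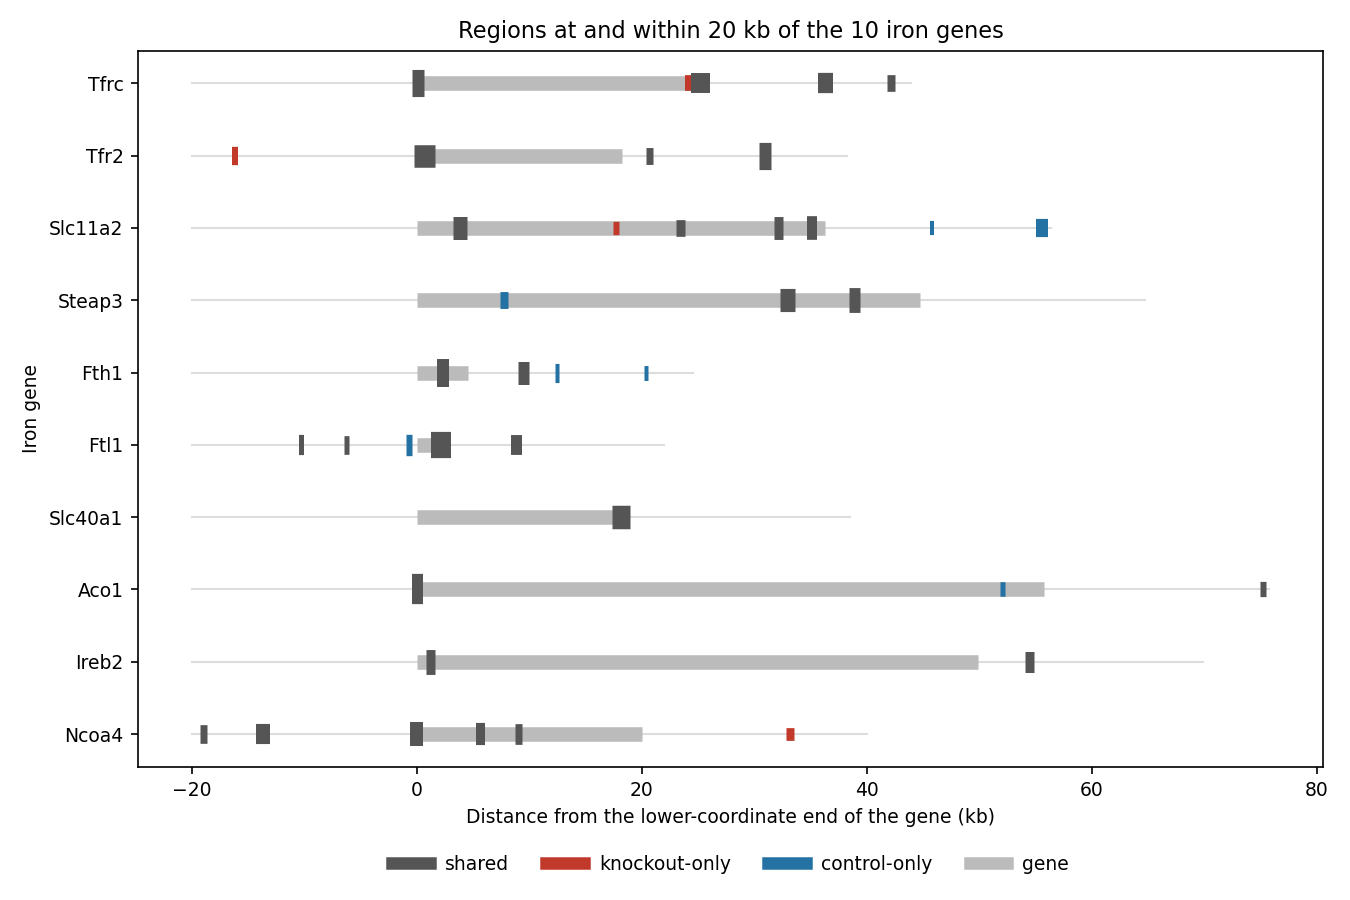
Regions at each of the 10 iron genes on mm10, as distance in kb from the gene's lower-coordinate end, with the gene as a light bar and each region as a block whose width is to scale and whose height grows with the log of its reads in the library with more. Knockout-only blocks lie at Tfrc, Tfr2, Slc11a2 and Ncoa4, control-only blocks at Slc11a2, Steap3, Fth1, Ftl1 and Aco1, and the single block of Slc40a1 is shared.

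Of 17 RefSeq starts of the iron genes, 14 lay in a region found in both genotypes, and 3 (1 of Fth1 and 2 of Steap3) had no peak in either. RefSeq gives starts with strand for 8 of the 10 genes, all but Slc11a2 and Slc40a1, and 10 regions covered or lay within 1 kb of them. All 10 were shared, beside 4.75% knockout-only and 8.72% control-only over the 10020 start regions of the genome. Their median log2 scaled ratio was -0.05, with a range of -0.38 to 0.28, 6 of 10 below 1 (48.7% of all shared start regions). Every interval held 1, and no ratio reached 2 or 0.5. Over all shared start regions 8.97% had an interval above 1 and 7.61% one below it, 1.25% a ratio of at least 2 and 0.807% one of at most 0.5.

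**Figure D2:**
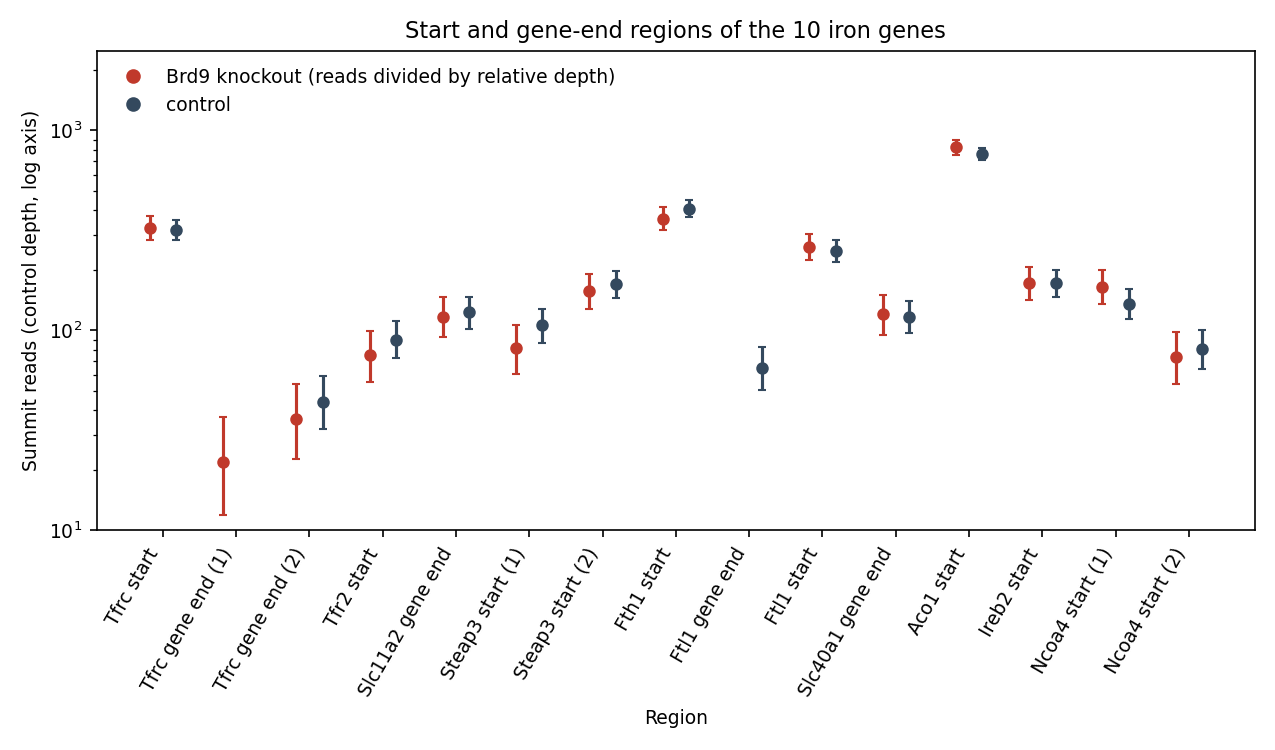
Summit reads (log axis) at the 15 start and gene-end regions of the iron genes, knockout (divided by the relative depth of 0.640) left of control, with exact Poisson 95% intervals as bars. The intervals overlap at the 13 shared regions, Aco1 stands highest in both genotypes, and 1 gene-end region each of Tfrc and Ftl1 has a point in 1 library alone.

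Uptake genes had 19 regions, of which 13 were shared, 3 knockout-only and 3 control-only, and 11 of the 13 shared ones had a ratio below 1 (median log2 -0.11). Tfrc codes for transferrin receptor 1, the receptor by which red cell precursors take in transferrin-bound iron. Its start region (chr16:32608457-32609496) took in the first promoter printed above and both RefSeq starts and had 208 knockout and 318 control reads. The scaled ratio was 1.02 (0.854 to 1.22), and the region stood at the 93.6th percentile of the knockout list and the 94.1st of the control list. The promoter of the receptor was thus among the more accessible sites of both genotypes, and its ratio could not be told from 1 by counting error. Summits were 82 bp apart.

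At the other end of Tfrc, a region of 541 bp that ends just past the gene (chr16:32632692-32633232) was called in the knockout list alone, with 14 reads (7.65 to 23.5). Beside it, 480 bp past the gene, a shared region had 23 knockout and 44 control reads (scaled ratio 0.816, 0.471 to 1.38), and there the knockout peak was 523 bp wide and the control peak 1654 bp. Both genotypes thus had a peak just past the gene, and the knockout list had one more over its end. A pair of shared regions farther out belongs to Tnk2, a tyrosine kinase gene. At its end, 11737 bp from Tfrc, there were 30 knockout and 48 control reads (ratio 0.976), and inside it 11 knockout and 18 control reads (0.954).

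Tfr2 codes for transferrin receptor 2, a homologue that binds iron-loaded transferrin and tunes the response of erythroid precursors to erythropoietin. A single region (chr5:137569520-137571408) covered all 3 RefSeq starts and an end of the neighbour Actl6b, with its summit 53 bp upstream of the third start in the knockout library and 17 bp downstream of it in the control library. It had 48 knockout and 90 control reads, a scaled ratio of 0.833 (0.574 to 1.20). The third promoter is printed above because it holds a GATA site, TGATAA, 61 bases before the start. The shared region at the ends of Mospd3 and Gm7285, 12167 bp away, was stronger, with 200 knockout and 326 control reads (0.958, 0.799 to 1.15). A weak region 2105 bp past Tfr2 had 11 knockout and 19 control reads (0.904).

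The strongest knockout-only region of the set lay 15932 bp from Tfr2, at the end of Actl6b, which codes for an actin-like subunit of BAF complexes known from neurons (chr5:137553408-137553890). It had 28 knockout reads (18.6 to 40.5) and no control peak, and its deposited -log10 q was 23.6. Among regions of the genome with at least as many knockout reads, 76 of 11136 (0.682%) were knockout-only. Among those with a knockout -log10 q within 1 of it, 4 of 465 (0.860%) were. A control peak was thus absent where nearly all sites of like strength had one. The peak lists give no reads where no peak was called, so no ratio could be formed.

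Slc11a2 codes for DMT1, the transporter that carries iron out of the endosome, and it had the lowest ratio of the 29 shared regions. At chr15:100391090-100392392, inside the gene toward its lower-coordinate end, there were 37 knockout and 102 control reads, a scaled ratio of 0.566 (0.378 to 0.833), or -0.82 on the log2 scale. The deposited fold over local background, the authors' value, was 8.65 in the knockout and 10.6 in the control list. Summits were 28 bp apart and peaks were 1091 bp wide in the knockout and 1303 bp in the control library, so the same site was called in both.

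The other 3 shared regions of Slc11a2 had intervals that held 1 and overlapped that of the lowest region, and the difference between regions was not tested. At the upper-coordinate end of the gene, which is also an end of the noncoding gene Gm5475, there were 75 knockout and 123 control reads (0.952, 0.705 to 1.28). A region next to it inside the gene (chr15:100419589-100420434) had 54 knockout and 100 control reads (0.843, 0.594 to 1.19), and one more inside the gene had 12 knockout and 18 control reads (1.04, 0.457 to 2.28). A weak knockout-only region inside the gene had 7 reads. Control-only regions lay outside it, with 27 reads (17.8 to 39.3) in 5330439K02Rik, 18698 bp away, and with 9 reads nearer to the gene.

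Steap3 codes for the endosomal ferrireductase that reduces iron for DMT1 in red cell precursors. RefSeq gives it 4 starts on the minus strand of chromosome 1, and the outer pair had no peak in either library. The third start, at 120265286, lay in a region (chr1:120264794-120265830) with 101 knockout and 170 control reads, a scaled ratio of 0.928 (0.718 to 1.19). The innermost start, at 120258878, lay in a region with 52 knockout and 106 control reads, a ratio of 0.766 (0.539 to 1.08), the lowest of the 10 start regions. Which starts were open was thus the same in both genotypes. A control-only region inside the gene had 19 reads.

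Storage genes had 15 regions, of which 11 were shared, 1 knockout-only and 3 control-only, with a median log2 scaled ratio of -0.03. Fth1 codes for the heavy chain of ferritin, which oxidises iron as it enters the protein shell. Of its 2 RefSeq starts, the one inside the gene at 9982646 was covered by a region (chr19:9982374-9983475), and the outer one at 9980600 had no peak in either library. In the pair printed above, the covered promoter holds a CCAAT 7 bases before the start, and the uncovered one a TATAAA 124 bases before it. G and C made up 67.0% of the 300-base window at the covered start and 36.7% at the uncovered one. The region had 232 knockout and 406 control reads, a scaled ratio of 0.892 (0.756 to 1.05). Its summit lay 335 bp past the start in the knockout library and 46 bp past it in the control library.

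Downstream of Fth1, inside the channel gene Best1, a shared region 4513 bp away had 46 knockout and 102 control reads (0.704, 0.486 to 1.01). Close to it a control-only region of 386 bp (chr19:9992863-9993248) had 35 reads (24.4 to 48.7) and no knockout peak, and a second control-only region at the ends of Best1 and Rab3il1 had 11. On this side of Fth1, 2 of 3 regions had no knockout peak, and the interval of the shared one reached just past 1.

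Ftl1 codes for the light chain of ferritin, which helps to form the iron core. Its start region (chr7:45459195-45461012), which also covers an end of the apoptosis gene Bax, had 168 knockout and 250 control reads, a scaled ratio of 1.05 (0.858 to 1.28), with summits 3 bp apart. At the 3′ end of Ftl1, shared with an end of the glycogen synthase gene Gys1, lay the control-only region with the most reads, 65 (50.2 to 82.8), in 540 bp (chr7:45456929-45457468). Local background there was 27.3 control reads, beside a median of 3.97 over the control list, and the deposited -log10 q was 7.18, at the 21.9th percentile of that list. Only 1.32% of regions with at least as many control reads were control-only, but 57.5% of those with a control -log10 q within 1 of it were. A region of many reads and low contrast was thus called once.

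Of the other 3 regions near Ftl1, the 2 inside Gys1 had 28 knockout and 47 control reads (0.930), and 25 knockout and 31 control reads (1.26). The one at the far end of Bax had 27 knockout and 43 control reads (0.981). The RefSeq table holds 2 processed copies of ferritin heavy chain and 3 of light chain under pseudogene names. The sources used here do not say how reads that map to several places were treated, so reads over the exons of both genes are uncertain.

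Ncoa4 codes for the receptor that delivers ferritin to autophagosomes and so releases its iron. Its first start lay in a region (chr14:32159294-32160458) that also covers an end of Msmb, with 106 knockout and 136 control reads, a scaled ratio of 1.22 (0.935 to 1.58), the highest of the 10 start regions. The 2 inner starts shared a region inside the gene (chr14:32165102-32165905), with 47 knockout and 81 control reads (0.906, 0.619 to 1.31). The start regions of this gene therefore lay on either side of 1, with intervals that overlapped. The other 3 shared regions had 35 knockout and 55 control reads (0.994), 36 knockout and 46 control reads (1.22), and 17 knockout and 31 control reads (0.856). A knockout-only region inside Timm23 had 6 reads.

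Export rests on Slc40a1, which codes for ferroportin, the only known iron exporter of mammalian cells. It had 1 region, at its upper-coordinate end (chr1:45925372-45927025), with 77 knockout and 117 control reads, a scaled ratio of 1.03 (0.761 to 1.38). Summits were 202 bp apart. No other peak of either library lay within 20 kb of the gene.

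Sensing genes had 5 regions, 4 shared and 1 control-only. Aco1 codes for iron regulatory protein 1, which acts as cytosolic aconitase when it holds an iron-sulfur cluster and binds RNA when it does not. Its start region (chr4:40142822-40143811) was the most accessible of the 40, with 527 knockout and 760 control reads, at the 99.6th percentile of both lists. The scaled ratio was 1.08 (0.967 to 1.21), the narrowest interval of the set. A control-only region inside the gene had 10 reads, and a shared region inside the neighbour Ddx58 had 11 knockout and 12 control reads (1.43, 0.572 to 3.54), the highest ratio and the widest interval.

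Ireb2 codes for iron regulatory protein 2, whose level is set by iron-dependent degradation. Its start region (chr9:54863421-54864275) had 110 knockout and 172 control reads, a scaled ratio of 0.999 (0.779 to 1.28). A region at the end of the kinase gene Hykk, 4166 bp past Ireb2, had 23 knockout and 59 control reads, a ratio of 0.609. That was the lowest ratio after the Slc11a2 region, and its interval, with a lower bound of 0.359, just held 1.

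**Figure D3:**
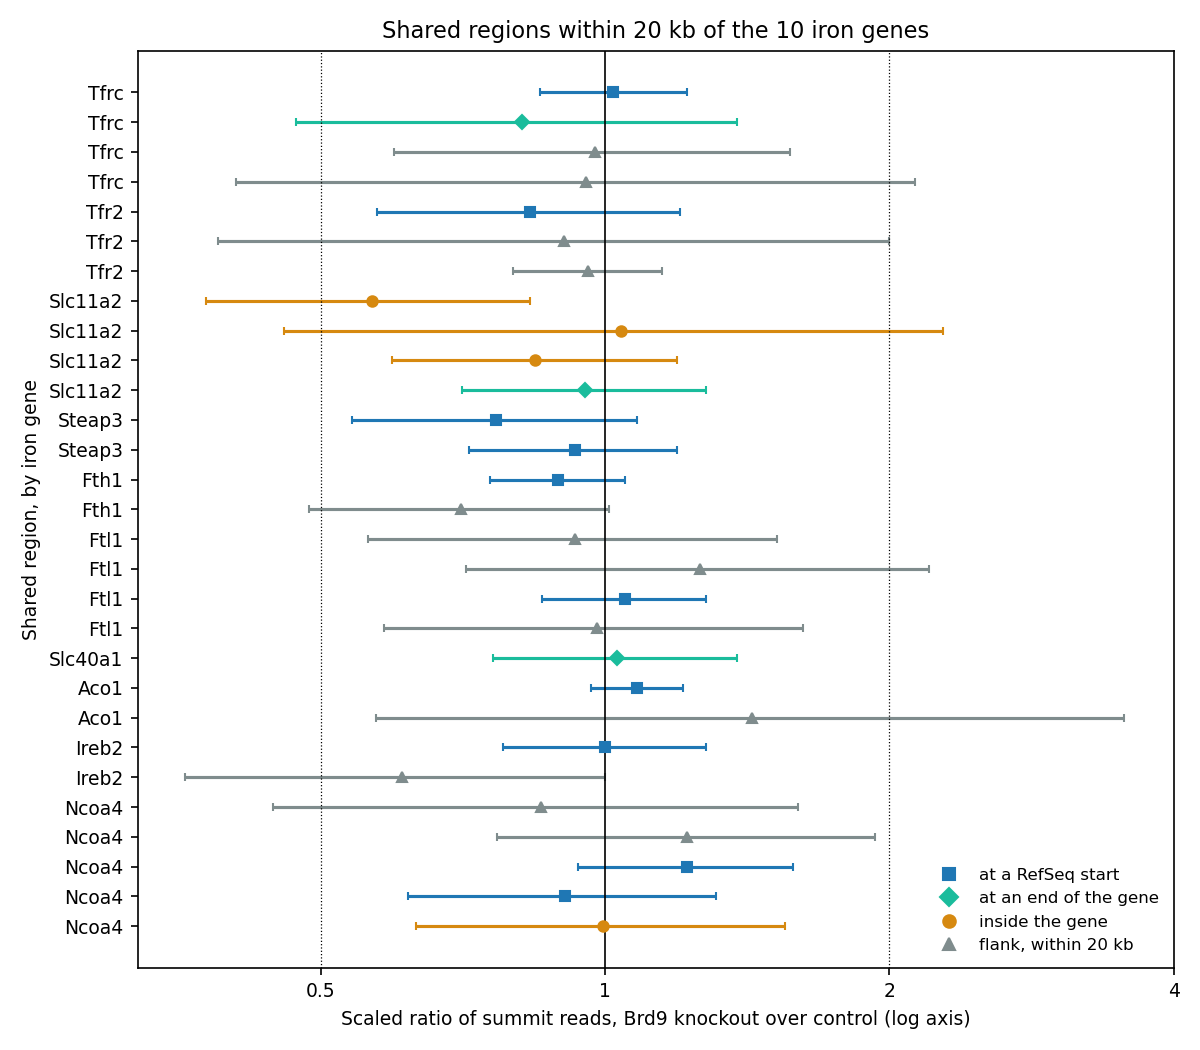
Scaled ratio of knockout over control summit reads (log axis) at the 29 shared regions of the iron genes, with exact conditional binomial 95% intervals as bars, symbols for the place of the region and dotted lines at 0.5 and 2. The region inside Slc11a2 at 0.566 is the only one whose interval does not reach 1.

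Set among regions of like strength, the iron regions were ordinary. Shared regions of the genome were binned by control reads, and 28 of the 29 iron regions lay between the 5th and the 95th percentile of their bin, with 14 above its median. Control reads are part of the ratio, so bins with few control reads tilt upward by construction, and the comparison is a description. The exception was the Slc11a2 region, at percentile 4.04 of 1660 regions with 90 to 120 control reads. In that bin the 5th percentile was -0.77 and the median -0.10 on the log2 scale.

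**Figure D4:**
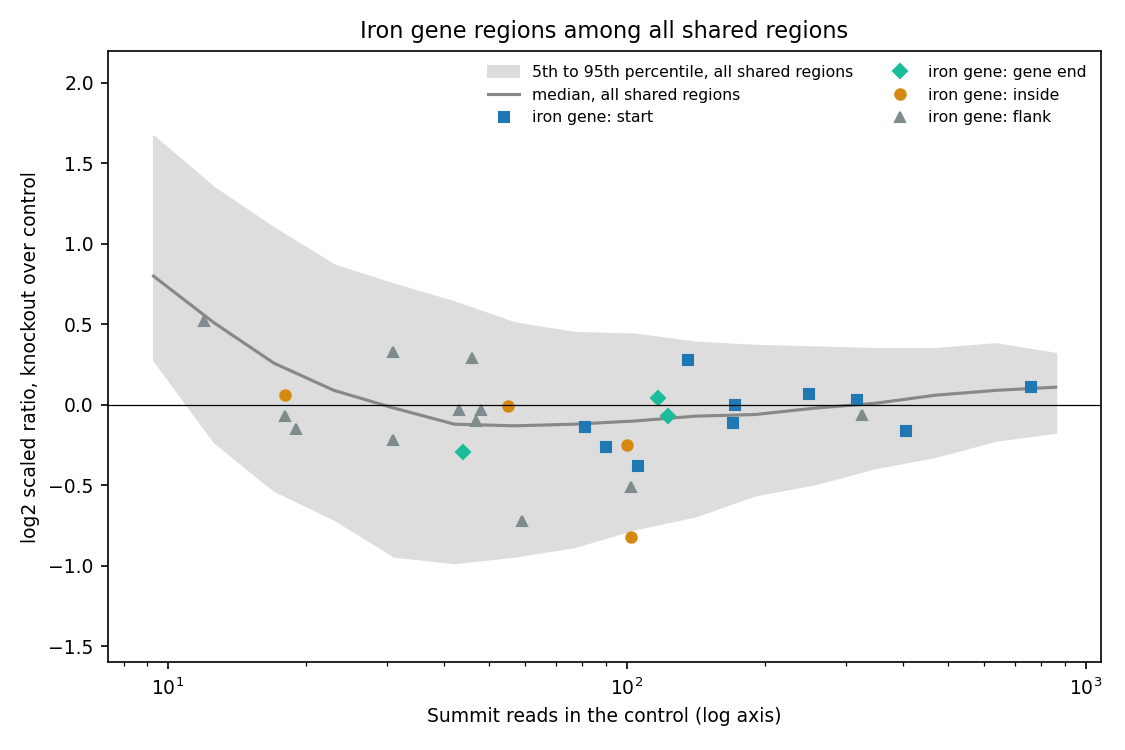
Log2 scaled ratio against control summit reads (log axis), with the 5th to 95th percentile of all shared regions as a band, their median as a line, and the 29 iron regions as symbols by place. The Slc11a2 region at -0.82 lies just below the band, and the other 28 lie inside it.

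Whether a region was found in both lists went with its place, and all 11 one-list regions lay away from the RefSeq starts of the iron genes themselves. Starts of neighbouring genes were not counted here, and Slc11a2 and Slc40a1 had no start given. By place, 4 of 7 regions inside the genes and 12 of 18 regions in the flanks were shared, against all 10 at starts. Over the genome, where a start of any gene counted, 86.5% of start regions and 51.5% of the other regions were shared. Of the others 17.3% were knockout-only and 31.2% control-only. The definitions of a start thus differ between the iron genes and the genome. The 19 shared regions away from ends of other genes had a median log2 scaled ratio of -0.10, and the 10 at such ends -0.05.

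Read against their depth, most of the one-list regions at the iron genes were weak. The Tfrc knockout-only region had a -log10 q of 2.90, and 68.7% of regions with a knockout -log10 q within 1 of it were knockout-only too, as were 4.68% of those with at least its reads. For the Slc11a2 knockout-only region of 7 reads the shares were 69.9% and 15.6%. For the Fth1 control-only region of 35 reads the control-only shares were 60.2% and 4.17%, and for the Slc11a2 region of 27 reads they were 31.4% and 6.48%. The Actl6b region near Tfr2, with 0.860% and 0.682%, had the lowest shares of the 6 regions read this way, which were the 3 strongest of each class.

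Promoter sequence gave a description of the open starts. Windows of 250 bases before to 50 after a start were given for 17 starts of 8 iron genes, and 14 of these starts lay in a shared region. Those 14 windows had a median of 63.3% G and C and 15 CpG, beside 62.0% and 22 over 10575 windows of the genome whose start lay in a shared region. The 3 starts outside a region had 56.3% and 4 CpG, beside 52.7% and 7 over all 32851 windows. Letters were searched on both strands. A GATA site, as spelled above, was in 2 of the 14 windows, against 17.0% of windows at shared regions and 29.8% of all windows. Those 2 were the third start of Tfr2 and the first start of Ncoa4, where TGATAG begins 125 bases before the start.

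CACCC, the core of the sites of KLF1, an erythroid factor, was in 8 of the 14 windows (63.5% at shared regions, 57.5% of all). The E-box CANNTG was in 6 (61.1% and 72.3%), CCAAT in 5 (39.7% and 37.4%) and TATAAA in 2 (5.74% and 13.6%). GGGCGG was in 8 (69.1% and 35.7%) and ACGTG, the core of hypoxia elements, in 6 (28.4% and 19.6%). Windows of close starts of Tfrc, Tfr2 and Ncoa4 overlap, so 1 match can count in 2 windows. The ACGTG of the 2 Tfrc windows is such a match. TGANNNNGC was in 4 (44.3% and 41.3%), GGAA in 13 (95.7% and 96.0%) and TGACTCA in none (2.85% and 5.20%). The loop letters of an iron-responsive element, CAGTG on the sense strand with a C 6 bases ahead, were in 2 windows, both of Tfr2 (9.92% and 10.5%). These windows overlap and share the same 1 match. CANNTG and ACGTG can overlap where they share CACGTG. With 14 windows of 8 genes these counts are small, and a match describes letters, not a bound site.

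Beyond the 10 genes, 70 other genes of iron and heme handling were read at their ends. Of these 46 had a gene-end region in both lists, 2 in the knockout list alone, 4 in the control list alone and 18 in neither. Starts inside a gene were not read here, so some of the 18 may have an open start. None of the 46 had a scaled ratio of at least 2 (1.36% of all shared gene-end regions) or at most 0.5 (0.881%). Each gene was read at its shared gene-end region with the most reads, while the background holds every such region, so the shares are not strictly alike. The interval lay above 1 at 6 (8.85% of the background) and below 1 at 4 (7.47%), and the median log2 scaled ratio was -0.03, with 27 below 1 and 19 above. In the background 5093 of 10552 regions were below 1. The counts of called genes were thus near the background or a little above it.

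Genes whose region had more reads in the knockout library than depth gave included Erfe, the erythroblast hormone that lowers hepcidin, with 50 knockout and 40 control reads (1.95, 1.26 to 3.04). Epas1, a hypoxia-inducible factor that regulates iron genes, had 37 knockout and 33 control reads (1.75, 1.07 to 2.89). Pcbp1, a chaperone that delivers iron to ferritin, had 117 knockout and 139 control reads (1.31, 1.02 to 1.69). Blvrb, a biliverdin reductase, reached 1.17 (1.03 to 1.33) and Isca2, an iron-sulfur cluster assembly gene, 1.16 (1.02 to 1.33). Erfe and Epas1 were the largest of these.

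Lower in the knockout library beyond counting error was Flvcr1, the heme exporter that erythroid precursors need, with 148 knockout and 341 control reads (0.678, 0.555 to 0.824).

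By list, genes of mitochondrial iron import and iron-sulfur clusters had a median log2 scaled ratio of -0.10. In this list 13 of 15 were below 1, where 5093 of 10552 shared gene-end regions of the genome were. Its intervals lay below 1 at 2 genes and above 1 at 1, so most held 1. The systemic iron and hepcidin list had a median of 0.41, with 6 of 7 above 1, and its interval excluded 1 at Erfe alone. Heme handling had -0.08 over 9 genes, regulators -0.07 over 10, and chaperones, oxidases and carriers 0.09 over 6. Markers of the sorted cells were read the same way. Over the 7 progenitor markers with a gene-end region in both lists, reads summed to 268 in the knockout and 581 in the control library (scaled ratio 0.720), with 6 of 7 below 1. The factor genes Tal1 (0.445, 0.329 to 0.594) and Lmo2 (0.504, 0.288 to 0.846) were lowest and Spi1 (1.98, 1.19 to 3.31) was highest. Over the 6 erythroid markers in both lists, reads summed to 612 in the knockout and 1089 in the control library (0.878), with 4 of 6 below 1. Of the 6, the interval lay below 1 at 2 and above 1 at 1. That 1 was the globin gene Hba-a1, with 35 knockout and 30 control reads (1.82, 1.09 to 3.07). The globin gene Hbb-bs, with 50 reads, and the anion exchanger gene Slc4a1, with 62, were control-only. The 2 globin genes thus went opposite ways. Gata1 and Alas2 had no gene-end region in either list. Sums over the shared hepatocyte and macrophage markers gave 1.20 and 1.11. The macrophage sum was mostly Axl (332 knockout and 486 control reads, 1.07), while Mertk had 21 and 12 (2.73, 1.28 to 6.09). The 2 shared stromal markers gave 1.42, on 39 knockout and 43 control reads. These were Col1a1 (1.02, 0.542 to 1.89) and Ncam1 (2.23, 1.07 to 4.77). Flt4, the 1 endothelial marker with a ratio, had 0.766 (0.455 to 1.26). The part of these markers in the values at the iron genes was not tested.

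Gene ends called in 1 list alone carried few reads with 1 exception. They made up 2 and 4 of the 52 genes with any gene-end region, where 6.39% of all gene-end regions were knockout-only and 11.2% control-only. The former count genes and the latter regions. A gene with any shared end region counted as found in both, which lowers the shares of genes. Knockout-only were Hfe, a hepcidin regulator, with 8 reads and Bmp2, its inducer, with 10. Control-only were Slc25a37, the mitochondrial iron importer mitoferrin-1, with 11 reads, the ferrireductase gene Cybrd1 with 11, Neo1, a receptor that binds hemojuvelin, with 8, and Zfp36, an RNA-decay factor, with 130. Zfp36 thus had the most reads of these gene ends, and its contrast to local background was not read.

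**Figure D5:**
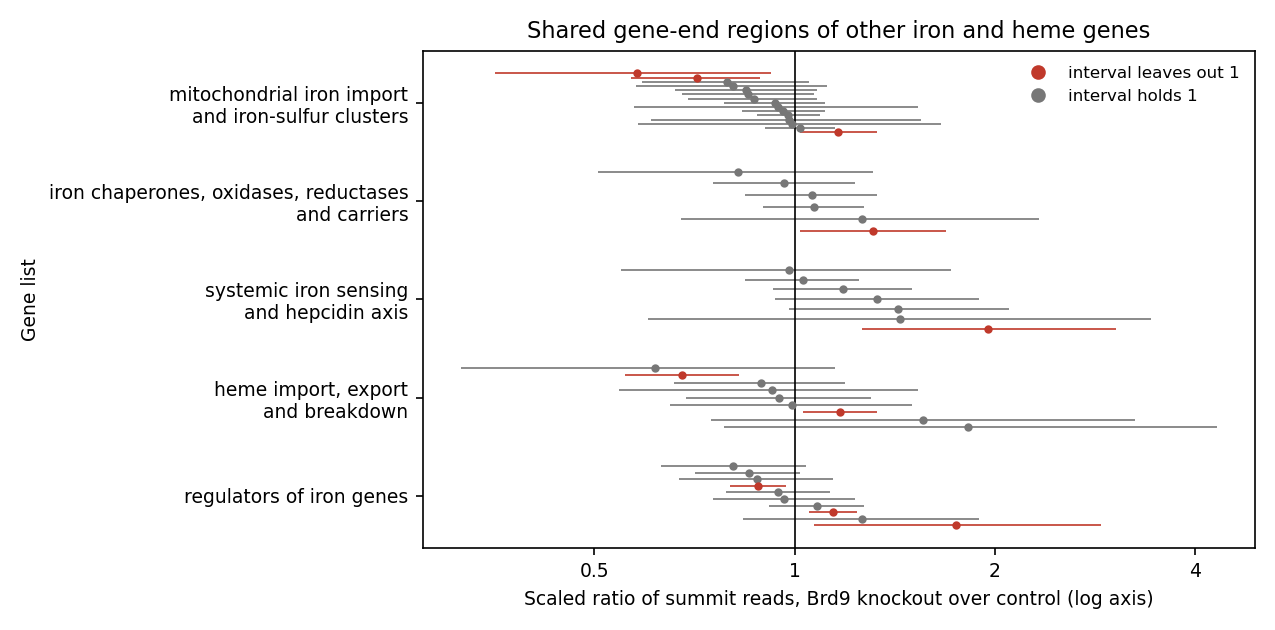
Scaled ratio of knockout over control summit reads (log axis) at the shared gene-end regions of the 5 lists of other iron and heme genes, with 1 point per gene, exact conditional binomial 95% intervals as bars, and red where the interval excludes 1. In the mitochondrial list 13 of 15 points lie below 1, in the systemic list 6 of 7 lie above it, and most intervals hold 1. Of all shared gene-end regions of the genome, 5093 of 10552 lie below 1.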

How the data were processed

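ATAC-seq peak lists of 1 knockout and 1 control library were used as the authors deposited them. Peaks were called per sample on mm10. MACS2 2.2.7.1 is named beside Bowtie2 2.4.4, Trimmomatic 0.39, deepTools 3.5.1 and Picard 2.26.2, per the submitters' processing notes, which give no settings. The sources used here do not say whether reads were shifted for the transposase. Each deposited peak has a score (10 times its -log10 q-value, not used further), a fold over local background, which is a ratio with a pseudocount of 1, and a −log10 p-value and −log10 q-value by the authors.

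Whole reads at the peak summits were solved from the deposited fold and −log10 p, with a relative misfit of at most 7.3e-06. Its scaling assumes that reads were extended alike in both libraries. Total reads are unknown. Peaks with over 3000 summit reads, 5 per list, got no ratio. Where a region held several peaks, its highest summit was used. Ratios have exact conditional binomial intervals, reads exact Poisson intervals and shares Clopper-Pearson intervals. Without molecular identifiers, reads are not independent molecules, so intervals cover counting error only.

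Genes and promoter windows came from RefSeq tables of GRCm38.p6. All 10 members matched by symbol, and 8 had promoter windows. The gene table has no strand, so for the other 2 genes only the ends were used. Named were all 10 genes, their gene-end regions, other regions with at least 40 reads in either library or past 2-fold, the 3 strongest regions of each one-list class, and, of the other iron genes, the 8 largest ratios whose interval excluded 1 and all gene ends in 1 list alone. Some of the ratios that this rule names are not reported here. Further weak regions were named for completeness. The members, gene lists and rules were chosen with earlier results of these data known. Calculations used SciPy 1.17.1, pandas 2.3.3 and NumPy 2.4.6 under Python 3.11.15, with plots by matplotlib 3.10.9, and the recovery was tested on simulated data.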

Additional observations from a re-analysis of the deposited data

How the results depend on the processing

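The ratios of the 29 shared regions are no test of stability here. Keeping peaks with −log10 q of at least 5, equal numbers of peaks or summed summits left each ratio as it was, and scaling to the median of the shared regions with most reads moved all of them alike. Counts of 1-list regions depended on thresholds. Control-only regions numbered 4 with −log10 q of at least 5, 4 with equal numbers of peaks and 13 within 50 kb, against 7. Knockout-only regions numbered 1 with −log10 q of at least 5, 2 within 10 kb and 2 without regions at the end of another gene, against 4. Leaving out regions at the end of another gene kept 19 of the 29 shared regions. Intervals below 1 numbered 2 within 50 kb, where a region 32647 bp from Fth1 (0.560, 0.376 to 0.818) joined. They numbered 3 when scaled to those regions (relative depth 0.652), where the Slc11a2 region (0.557) was joined by flanking regions of Fth1 (0.692, 0.478 to 0.989) and Ireb2 (0.598, 0.353 to 0.983). With gene ends widened to 2.5 kb, 7 of the other iron genes had an interval below 1, against 4. Medians on the log2 scale ran between -0.10 and -0.06 for shared regions, -0.11 and -0.05 for start regions, and -0.00 and 0.03 for gene-end regions. The alternatives on start regions, interval counts, neighbours' ends and other iron genes were chosen after seeing the data. No paired analysis was possible because there was 1 library per genotype and the libraries share no replicate number. Absolute depth is unknown.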
